A study of Mus musculus with 3 samples.

Results

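The 10 genes described here were Cdkn1a, Mdm2, Bax, Bbc3, Trp53inp1, Ccng1, Phlda3, Fas, Tnfrsf10b and Btg2, which are targets of the transcription factor p53 or encode receptors that signal cell death. They were taken by name, and all 10 were on the array and were well above background on all 3 arrays, against 13626 of 20284 named genes. They were read by 12 probes in 22 spots, and Cdkn1a and Trp53inp1 had 2 probes each. The 3 arrays were one-colour Agilent arrays of liver from C57BL/6J mice (c57BL6/J in the labels), each expressing human YAP for 2 days: wild-type YAP (WT), or the mutants 1SA or 2SA, in which serines that Hippo kinases phosphorylate are replaced by alanine. All groups shared hydrodynamic tail vein injection (HTVi), which delivers plasmid to the liver in a large volume and for which the methods name male mice 8 weeks old, and a vector whose mouse AFP enhancer II and minimal albumin promoter act in hepatocytes, so that only part of the hepatocytes and no other cells were meant to express YAP. The study asked how hepatocytes with active YAP fare in a damaged liver. Each group held 1 array, the labels do not say whether its RNA came from 1 mouse or a pool and the number 2 stands in the WT title. No array of liver without YAP plasmid was analysed here, and a difference between constructs cannot be told apart from a difference between liver samples.

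YAP is a transcriptional coactivator that the Hippo pathway holds in the cytoplasm, and in the nucleus it acts mainly through TEAD factors. The p53 protein is kept low by the ubiquitin ligase Mdm2, which is itself a p53 target, and on DNA damage or other stress it binds pairs of 10-base half-sites and turns on genes that halt the cell cycle, repair DNA or start apoptosis. The death receptors Fas and Tnfrsf10b (the mouse TRAIL receptor) start apoptosis from the cell surface through Fadd and caspase-8, and hepatocytes are known for their sensitivity to Fas ligand. Several of the 10 genes also respond to signals other than p53.

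The sequences before the starts of these genes show how far they carry p53 half-sites close to their promoters. They come from a RefSeq promoter table of build GRCm38.p6, which holds 32851 starts. Trp53inp1 and Tnfrsf10b had no entry, and the other 8 genes had 11 starts (3 for Bbc3, whose windows partly overlap, and 2 for Cdkn1a). The 250 bases before each start were searched on both strands. The p53 half-site, searched by its consensus with no mismatch, was in 4 of 11 windows, those of Cdkn1a, Mdm2, Bax and Ccng1, against 7.13% of all windows. A pair of half-sites 0 to 13 bases apart and with at most 2 mismatches, none of them in the core of a half-site, was in 2 of 11, against 1.75%. The TEAD motif GGAATG was in 0 of 11 windows, against 12.6%, and the AP-1 motif TGANTCA was in 1 of 11, that of Fas, against 6.75%. None of the motifs found overlapped a different motif. A match describes the letters of a window and is no evidence of binding, and a missing match says only that the letters are not in these 250 bases. The windows below are shown because they hold half-sites, or, for the second Cdkn1a start and Phlda3, because they do not while the gene was among the most different of the 10. Capitals mark half-sites or half-site pairs, and each sequence runs 5′ to 3′ on the strand of its gene and ends at the base before the start.

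Cdkn1a, first start, chr17:29090729-29090978, plus strand: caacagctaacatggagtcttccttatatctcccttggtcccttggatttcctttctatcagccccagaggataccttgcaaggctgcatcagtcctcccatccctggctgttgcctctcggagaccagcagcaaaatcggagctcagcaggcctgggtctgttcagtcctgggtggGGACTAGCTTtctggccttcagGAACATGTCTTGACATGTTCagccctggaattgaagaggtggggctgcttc
Cdkn1a, second start, chr17:29093519-29093768, plus strand: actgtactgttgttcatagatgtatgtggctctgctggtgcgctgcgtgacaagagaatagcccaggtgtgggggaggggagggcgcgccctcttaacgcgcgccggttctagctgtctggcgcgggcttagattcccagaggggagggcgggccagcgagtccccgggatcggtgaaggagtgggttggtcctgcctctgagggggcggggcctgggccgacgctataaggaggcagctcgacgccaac
Bax, chr7:45466899-45467148, minus strand: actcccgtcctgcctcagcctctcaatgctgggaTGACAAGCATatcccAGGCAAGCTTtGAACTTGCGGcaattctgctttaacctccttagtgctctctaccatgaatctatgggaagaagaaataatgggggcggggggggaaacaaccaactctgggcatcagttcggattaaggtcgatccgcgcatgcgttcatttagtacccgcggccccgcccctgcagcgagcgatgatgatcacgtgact
Mdm2, chr10:117710759-117711008, minus strand: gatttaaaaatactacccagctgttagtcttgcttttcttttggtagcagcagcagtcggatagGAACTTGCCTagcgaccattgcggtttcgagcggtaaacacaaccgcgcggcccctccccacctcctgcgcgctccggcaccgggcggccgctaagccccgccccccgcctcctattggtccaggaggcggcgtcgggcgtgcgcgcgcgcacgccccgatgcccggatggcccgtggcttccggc
Ccng1, chr11:40755287-40755536, minus strand: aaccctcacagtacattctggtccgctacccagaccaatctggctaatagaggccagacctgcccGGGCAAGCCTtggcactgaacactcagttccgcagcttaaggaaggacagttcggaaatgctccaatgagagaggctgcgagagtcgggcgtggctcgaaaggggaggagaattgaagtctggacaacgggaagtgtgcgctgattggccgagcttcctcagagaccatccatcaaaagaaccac
Phlda3, chr1:135765835-135766084, plus strand: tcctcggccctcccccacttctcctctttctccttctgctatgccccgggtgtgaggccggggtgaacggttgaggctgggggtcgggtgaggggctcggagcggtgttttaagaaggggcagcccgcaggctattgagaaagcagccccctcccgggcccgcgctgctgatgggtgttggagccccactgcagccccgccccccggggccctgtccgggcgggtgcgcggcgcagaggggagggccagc

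The first Cdkn1a start has the pair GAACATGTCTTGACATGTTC from position -51 to -32, counted back from the start, with 0 bases between its half-sites and 1 mismatch, and a further half-site from -73 to -64, which lies 12 bases before it and pairs with it with 0 mismatches. The second start lies 2790 bases downstream. The table does not say which start belongs to which of the transcripts that the array's Cdkn1a probes are named for. In Bax, 2 overlapping pairs lie between -216 and -181, each with 2 mismatches. Mdm2 and Ccng1 have 1 half-site each, from -186 to -177 and from -185 to -176.

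All levels below are scaled intensities, in which a probe's background-subtracted brightness is given as a multiple of the 75th percentile of its array. Levels of different probes are not comparable, and differences are between arrays for the same probe, on the log2 scale. The only repeat measurement came from probes spotted several times on an array. From 306 such probes, the median SD between spots of the same array was taken. It was multiplied by the square root of 2, for a difference, and by 1.96. The result, called the spot limit here, was 0.428 under an intensity of 100, 0.200 at medium intensity and 0.146 for bright probes. It covers error between spots of an array, and probes with more variable spots can exceed it. It leaves out differences in labelling or hybridisation between arrays and the spread between mice, and no test between groups was possible.

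Cdkn1a encodes p21, which inhibits cyclin-dependent kinases and halts the cell cycle. Its brighter probe (NM_007669) read 1.59 in WT, 0.704 in 1SA and 2.27 in 2SA, averaged over 10 spots (8 on 2SA, where 2 spots were left out as outliers). The level was thus lowest in 1SA and highest in 2SA, and the spots of the 3 arrays did not overlap. The spots ran from 1.49 to 1.65 on WT, with a median of 1.61, from 0.624 to 0.792 on 1SA, with a median of 0.716, and from 2.15 to 2.48 on 2SA, with a median of 2.25. The level was 2.26-fold lower in 1SA than in WT (log2 difference -1.18), 1.43-fold higher in 2SA than in WT (0.51) and 3.23-fold higher in 2SA than in 1SA (1.69). As RNA of whole liver was measured, fewer cells with the transcript and less transcript per cell cannot be told apart, here and below.

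**Figure D1:**
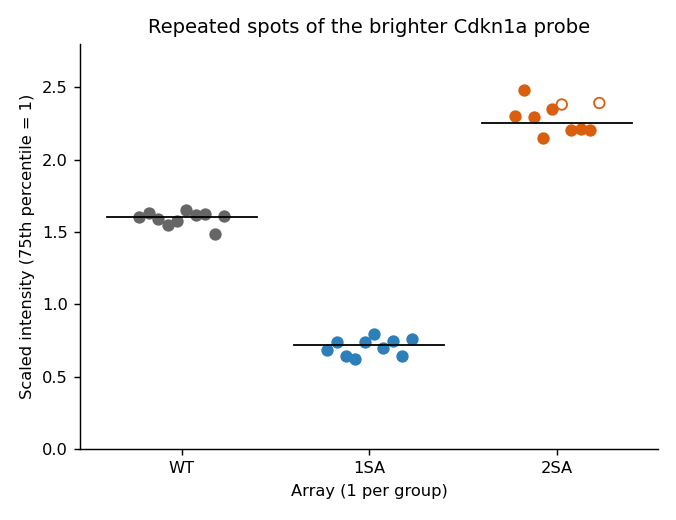
Repeated spots of the brighter Cdkn1a probe on the 3 arrays, with the array on the x axis and scaled intensity (75th percentile of the array = 1) on the y axis. Points are spots, open points are the 2 spots left out on 2SA, and lines are medians, at 1.61 in WT, 0.716 in 1SA and 2.25 in 2SA, with no overlap between arrays.

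The other Cdkn1a probe (NM_001111099) was dim and read from 1 spot, at 0.0953 in WT, 0.0516 in 1SA and 0.208 in 2SA. It had the same order of arrays as the brighter probe. Its differences were -0.89 for 1SA minus WT, 1.12 for 2SA minus WT and 2.01 for 2SA minus 1SA, each larger than the spot limit of 0.428. Against WT, the mean of both probes was -1.03 in 1SA and 0.82 in 2SA, and the size of the 2SA difference therefore depended on the probe. Among all genes, 0.646% had a lower value than the brighter probe in 1SA minus WT, and 0.499% a higher one in 2SA minus 1SA.

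Phlda3, a p53 target that holds back the kinase Akt, had the same order of arrays. It read 2.54 in WT, 1.71 in 1SA and 4.12 in 2SA. The level was 1.48-fold lower in 1SA than in WT (-0.57), 1.62-fold higher in 2SA than in WT (0.70) and 2.40-fold higher in 2SA than in 1SA (1.27), where 1.34% of all genes had a higher value. Bax, which opens the outer mitochondrial membrane in apoptosis, read 7.77 in WT, 6.13 in 1SA and 9.51 in 2SA. It was again lowest in 1SA and highest in 2SA, with smaller differences of -0.34 for 1SA minus WT, 0.29 for 2SA minus WT and 0.63 for 2SA minus 1SA, all above its spot limit of 0.146. Cdkn1a, Phlda3 and Bax were the members that lay on opposite sides of WT in the mutants by more than the spot limit in both. The share of all genes that did so was not counted.

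Bbc3, which encodes the pro-apoptotic protein Puma, was higher in both mutants than in WT. It read 2.72 in WT, 3.53 in 1SA and 4.57 in 2SA, which is 1.30-fold (0.38) and 1.68-fold (0.75) above WT. The difference between the mutants, 0.37, was also above the spot limit of 0.146. Bax and Bbc3 therefore differed in 1SA, where Bax was below WT and Bbc3 above.

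Fas, the receptor for Fas ligand, read 3.82 in WT, 3.57 in 1SA and 4.52 in 2SA over 2 spots. The spots ran from 3.74 to 3.90 in WT, from 3.45 to 3.68 in 1SA and from 4.39 to 4.66 in 2SA. The 2SA level lay above both others (0.24 against WT and 0.34 against 1SA), while 1SA minus WT, at -0.10, was within the spot limit of 0.146. Tnfrsf10b was dim, with scaled intensities of 0.227 in WT, 0.230 in 1SA and 0.387 in 2SA. It was 1.71-fold higher in 2SA than in WT (0.77) and 1.69-fold higher than in 1SA (0.75), and WT and 1SA differed by 0.02. Its differences in 2SA were above the spot limit of 0.428. With another background correction (normexp) they were 0.42 against WT and 0.36 against 1SA. Both were below 0.428, although the spot limit was not computed for normexp values.

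Btg2, an antiproliferative gene that is also an immediate early gene, and Trp53inp1, which encodes a stress protein that promotes p53 activity and autophagy, had another order, with 1SA highest and WT lowest. Btg2 read 0.771 in WT, 1.26 in 1SA and 0.983 in 2SA, which is 1.63-fold (0.71) and 1.28-fold (0.35) above WT, and 2SA minus 1SA was -0.36. The brighter Trp53inp1 probe read 3.03 in WT, 4.22 in 1SA and 3.50 in 2SA, with differences of 0.48, 0.21 and -0.27. The other Trp53inp1 probe, at 0.368, 0.441 and 0.409 in the same order, gave 0.26, 0.15 and -0.11, so both probes had the same order of arrays at different sizes. Its 2SA minus 1SA value and its 2SA minus WT value were within the spot limit of 0.200.

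Mdm2 and Ccng1 differed little. Mdm2, the ligase that marks p53 for degradation, read 12.7 in WT, 12.5 in 1SA and 12.4 in 2SA, with no difference larger than 0.04 in size and all within the spot limit of 0.146. Ccng1, which encodes cyclin G1, a regulator of Mdm2 and p53, read 2.16, 1.95 and 2.24 in WT, 1SA and 2SA. Its differences were -0.14, 0.05 and 0.19, all within the spot limit of 0.200. Thus the 4 genes with a p53 half-site in the searched windows held both the most different member and the least different one.

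**Figure D2:**
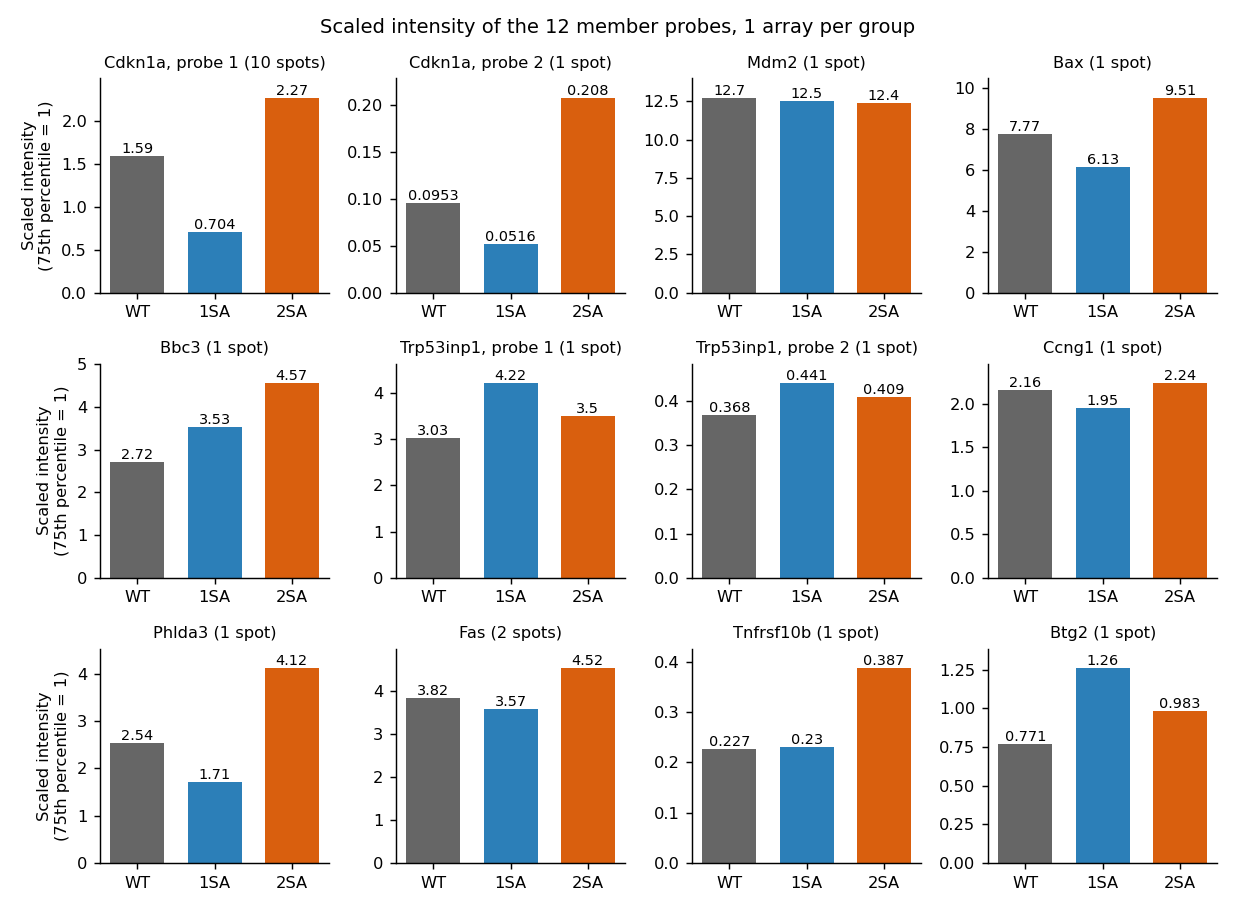
Scaled intensity (y axis, 75th percentile of the array = 1, each panel with its own scale from 0) of the 12 probes of the 10 genes on the WT, 1SA and 2SA arrays (x axis, 1 array per group, so no error bars). Both probes of Cdkn1a, and those of Phlda3 and Bax, were lowest in 1SA and highest in 2SA, both probes of Trp53inp1 and that of Btg2 were highest in 1SA, and Mdm2 stayed between 12.4 and 12.7.

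Across the 10 genes, the level was highest in 2SA for 7 (31.3% of all genes were highest in 2SA), highest in 1SA for 2 and highest in WT for 1, Mdm2. It was lowest in 1SA for 5 (34.4% of all genes), in WT for 4 and in 2SA for 1. These orders count differences of any size, those within the spot limit included.

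In 1SA minus WT the median of the 10 genes was -0.06, against -0.00 over all genes, and 4 of 10 were higher (49.7% of all genes). None was at least 2-fold higher (0.727% of all genes were) and 1, Cdkn1a, was at least 2-fold lower (1.14%). At 1.5-fold, Btg2 was higher (3.08%) and Cdkn1a lower (4.67%). The members thus spread to both sides, with Cdkn1a and Phlda3 at the low end and Btg2 and Trp53inp1 at the high end.

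In 2SA minus WT the median was 0.32, against -0.03 over all genes, and 9 of 10 were higher (43.6% of all genes), all but Mdm2. None was 2-fold higher (1.12%) or 2-fold lower (0.543%). At 1.5-fold, Bbc3, Phlda3 and Tnfrsf10b were higher (3.79%) and none was lower (3.02%). The differences were thus mostly small and in 1 direction. Of the 9 higher genes, Ccng1 was within its spot limit, and Trp53inp1 was above it by its brighter probe only (0.21, against 0.15 for the other). How many of all genes passed the spot limit was not counted.

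In 2SA minus 1SA the median was 0.36, against -0.03, and 7 of 10 were higher (45.6% of all genes). Cdkn1a and Phlda3 were at least 2-fold higher (2.47%), and none was 2-fold lower (1.12%). At 1.5-fold, Tnfrsf10b and Bax joined them, which made 4 of 10 (6.99%), and none was lower (4.56%). The mutant comparisons with WT share the WT array and are not independent of each other, and with 10 genes chosen by name the shares over all genes are a background and no test.

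**Figure D3:**
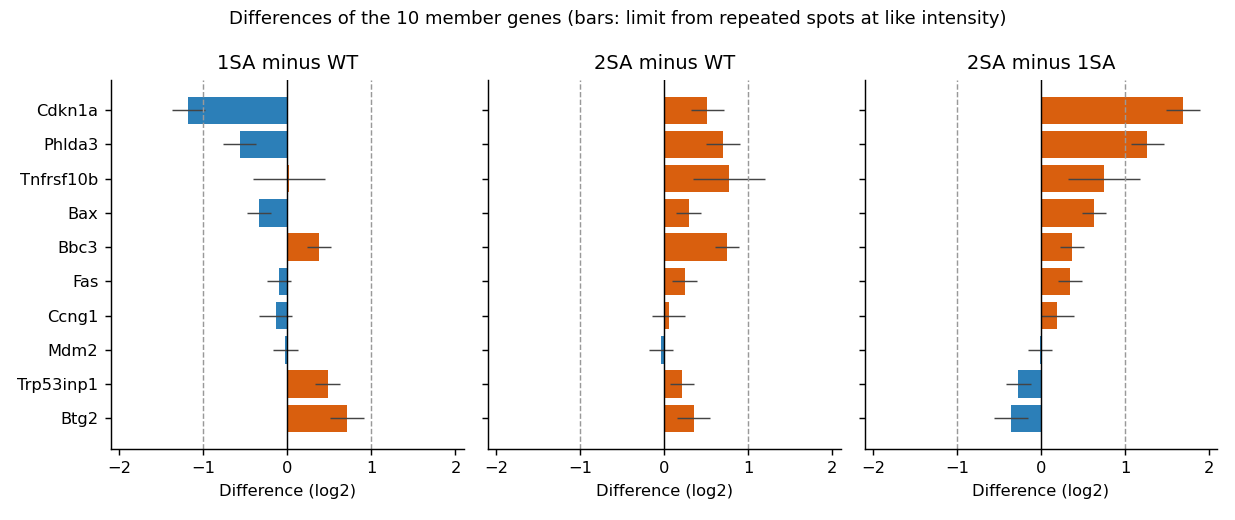
Differences between arrays on the log2 scale (x axis) for the 10 genes (y axis), for each gene's brightest probe, in panels for 1SA minus WT, 2SA minus WT and 2SA minus 1SA. Bars show the difference, lines the spot limit to both sides and dashed lines a 2-fold difference, which Cdkn1a passed in 1SA minus WT (-1.18) and Cdkn1a (1.69) and Phlda3 (1.27) passed in 2SA minus 1SA.

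**Figure D4:**
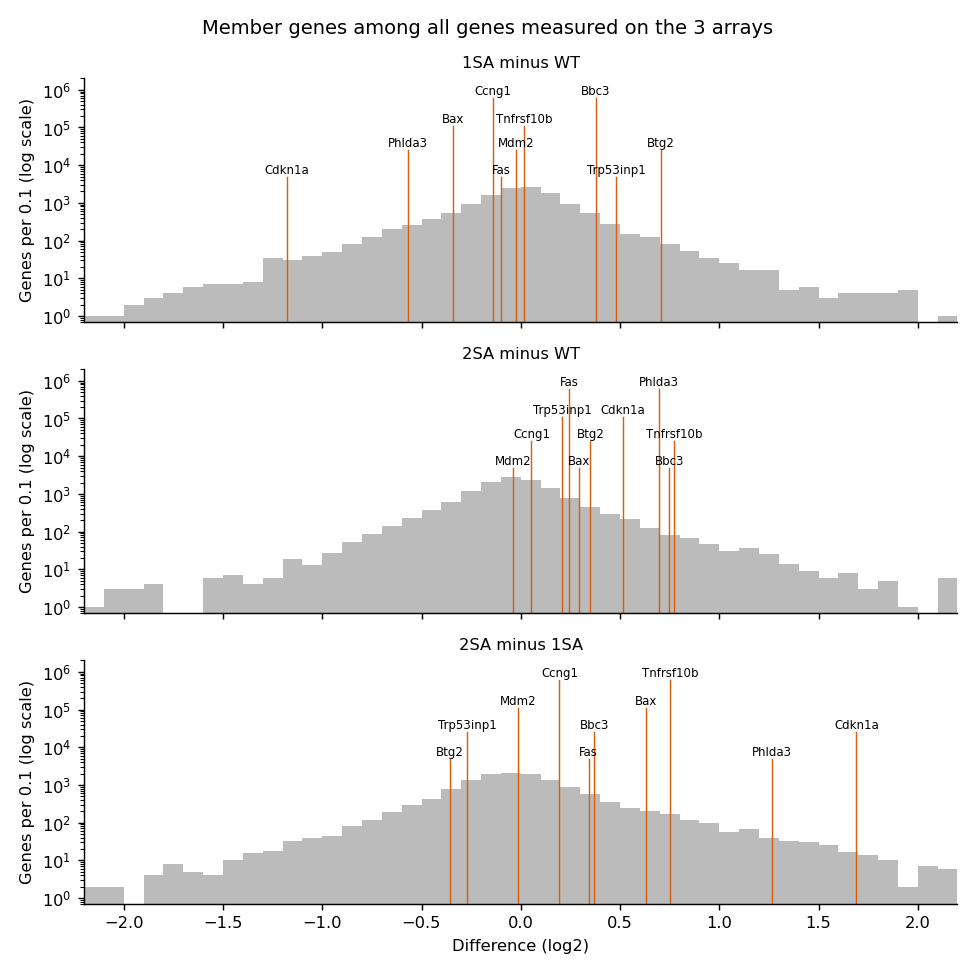
Histograms of the differences of all 13626 genes (grey, number of genes per 0.1 on a log y axis, against the log2 difference on the x axis), with the 10 genes as orange lines whose heights only separate the names. The members lie on both sides of 0 in 1SA minus WT and mostly to the right of 0 in 2SA minus WT and 2SA minus 1SA, and a few genes lie outside the drawn range.

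The p53 gene itself, Trp53, was dim, at 0.254 in WT, 0.194 in 1SA and 0.262 in 2SA. Its differences were -0.39 for 1SA minus WT and 0.05 for 2SA minus WT, both within the spot limit of 0.428, while 2SA minus 1SA, at 0.44, was just above it. Transcript levels of Trp53 do not show the amount of p53 protein, which is set mainly by degradation. Mdm4, an inhibitor of p53 related to Mdm2, differed by -0.04 in both mutants. Among 17 of 18 measured genes of the p53 family and its regulators, the medians were -0.01, -0.01 and -0.07 in 1SA minus WT, 2SA minus WT and 2SA minus 1SA.

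In that list only Chek1, the checkpoint kinase gene, was 2-fold higher in 1SA than in WT (1.05) and 2-fold lower in 2SA than in 1SA (-1.06), from a dim probe at 0.0629 in WT, 0.130 in 1SA and 0.0623 in 2SA. The lowest value in both mutants was that of Trp63, a p53 relative, at -0.80 in 1SA and -0.65 in 2SA. Its probes name different transcripts, and the second was not well above background on any array. The kinase gene Atm (0.41) was the other high gene in 1SA, although its second probe, over 10 spots, read 0.119 in WT and 0.120 in 1SA. Trp53bp1, which encodes a p53-binding repair protein, was the other low one in 2SA (-0.47). Chek2 (0.39, within the spot limit of 0.428) and Hipk2 (0.25) were highest in 2SA minus WT. The second Hipk2 probe had 1SA below WT where the brighter one had it above (0.09).

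Of 28 other p53 targets, 24 were measured on all arrays, with medians of -0.07 in 1SA minus WT, 0.01 in 2SA minus WT and 0.15 in 2SA minus 1SA. At 2-fold, 1 was higher and 0 lower in 1SA minus WT, 1 was higher and 1 lower in 2SA minus WT, and 1 was higher and 1 lower in 2SA minus 1SA. Over all genes, the shares at 2-fold were 0.727% and 1.14%, 1.12% and 0.543%, and 2.47% and 1.12% in the same order. At 1.5-fold, 1 was higher (3.08% of all genes) and 2 lower (4.67%) in 1SA minus WT, 4 were higher (3.79%) and 1 lower (3.02%) in 2SA minus WT, and 7 were higher (6.99%) and 1 lower (4.56%) in 2SA minus 1SA. The level was highest in 2SA for 12 of the 24 genes (31.3% of all genes), in WT for 7 and in 1SA for 5. By differences of any size, 8 of the 24 were lowest in 1SA and highest in 2SA, as were 5 of the 10 members. The share of all genes with that order was not counted.

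Plk3, a stress kinase gene, had the largest differences of the list in 1SA minus WT and 2SA minus 1SA and had the opposite order of arrays to Cdkn1a. It read 8.49 in WT, 31.9 in 1SA and 3.65 in 2SA, so that 1SA was above WT (1.91) and 2SA below it (-1.22), with -3.13 between the mutants. Gadd45a, a growth arrest and DNA damage gene, read 1.00 in WT, 1.40 in 1SA and 2.58 in 2SA and was higher in both mutants (0.48 and 1.36). Pmaip1, which encodes the pro-apoptotic protein Noxa, was lowest in 1SA, at 0.460 in WT, 0.283 in 1SA and 0.532 in 2SA (-0.70, 0.21 and 0.91).

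The kinase gene Plk2 had that order as well, at 0.483, 0.308 and 0.538 (-0.65, 0.16 and 0.80). Pidd1, which encodes a death domain protein, was 0.78 higher in 2SA than in WT from a dim probe, and Tigar, a regulator of sugar phosphate metabolism, was lower there (-0.51). Apaf1, the core of the apoptosome, was the 1 gene of the list at least 2-fold higher in 2SA than in 1SA (1.06), from a dim probe, and was named after its value was seen. Rrm2b and Dram1 were not well above background in WT, and Eda2r and Spata18 on no array.

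Genes of the death receptor pathway around Fas and Tnfrsf10b mostly lay close to 0. Of 20 genes, 18 were measured on all arrays, with medians of -0.06, -0.03 and -0.02, and none was 2-fold higher or lower in any comparison. Tnfrsf25, another death receptor gene, was the only one past 1.5-fold in 2SA, at -0.89 against WT and -0.89 against 1SA. Tnfsf10, which encodes the TRAIL ligand of Tnfrsf10b, read 1.5 in WT, 1.41 in 1SA and 1.04 in 2SA, so it was lowest in 2SA (-0.52 against WT), where its receptor was highest.

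Fadd, the adaptor of both receptors, read 1.33, 1.22 and 1.39 in WT, 1SA and 2SA and stayed within the spot limit of 0.200 in every comparison. Casp8, which encodes the initiator caspase-8, read 4.62 in WT, 3.57 in 1SA and 4.53 in 2SA, and was lower in 1SA (-0.37) with little difference in 2SA (-0.03). Ripk3, a necroptosis kinase gene, was likewise lower in 1SA (-0.37), with 0.15 in 2SA, both against WT. Tnfrsf1a, the main receptor for TNF, was among the higher genes in 1SA minus WT (0.10, within the spot limit of 0.146). Tnfrsf21, another death receptor gene, was the highest in 2SA minus WT (0.30, within the spot limit of 0.428).

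Fasl, the Fas ligand gene of lymphocytes, was well above background in 2SA alone, from 1 dim spot. It was at least 1.21-fold higher there than in WT and at least 1.40-fold higher than in 1SA. On the log2 scale the bound against WT was 0.28, within the spot limit of 0.428. The bound against 1SA was 0.49, just above that limit. Tnf had 10 spots, of which 9 were used on WT and 9 on 1SA. Its log2 spot SD was 0.36 on WT and on 1SA and 0.21 on 2SA. Tnf was also well above background in 2SA alone, at least 2.28-fold above WT and at least 3.08-fold above 1SA. For such a bound the dim array counted at its own value or at its lowest measured signal, whichever was higher. A list of 4 genes for decoy receptors of TRAIL and their relatives was measured in full, with medians of -0.15, -0.01 and 0.12.

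Tnfrsf23 of that group was lowest in 1SA, at 0.553 in WT, 0.300 in 1SA and 0.600 in 2SA (-0.88, 0.12 and 1.00), and remained just under 2-fold between the mutants. Its second probe was not well above background on any array. Tnfrsf11b, which encodes osteoprotegerin, was lower in 2SA (-0.71). Tnfrsf22 (0.31 in 1SA minus WT and -0.13 in 2SA minus WT) and Tnfrsf26 (-0.33 and 0.35) stayed within the spot limit of 0.428 against WT. The second Tnfrsf22 probe was not well above background in WT and at least 2.19-fold higher in 1SA and at least 1.98-fold higher in 2SA than there.

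**Figure D5:**
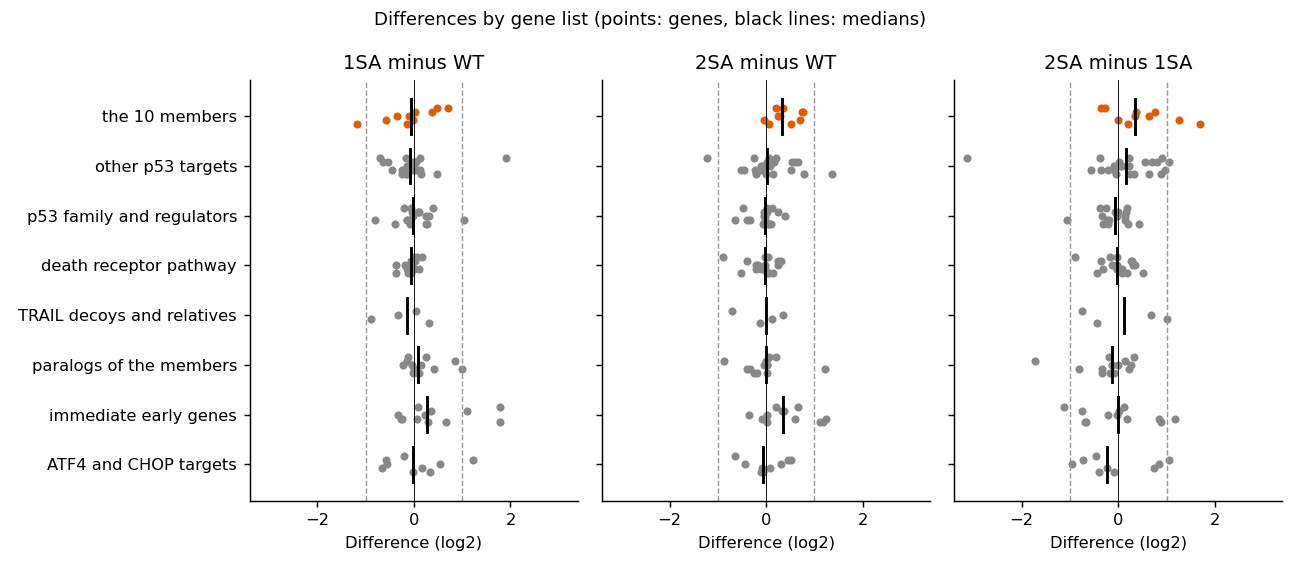
Differences between arrays on the log2 scale (x axis) for the measured genes of 8 lists (y axis), in panels for 1SA minus WT, 2SA minus WT and 2SA minus 1SA. Points are genes, black lines medians and dashed lines a 2-fold difference. The 10 members (orange) have medians of -0.06, 0.32 and 0.36, and the wider list of p53 targets -0.07, 0.01 and 0.15.

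Relatives of the members were compared to see whether the differences were shared within gene families. Of 14, 13 were measured, with medians of 0.08, -0.00 and -0.14. Cdkn1b, a relative of Cdkn1a, differed by -0.03 in 1SA and -0.20 in 2SA, and Cdkn1c by 0.00 and -0.33, both named after their values were seen. Ccng2, the relative of Ccng1, was higher in both mutants (0.99 and 1.22) from a dim probe. Phlda1, the relative of Phlda3, read 31.5 in WT, 56.7 in 1SA and 17.2 in 2SA and so had the opposite order (0.85, -0.87 and -1.72).

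Phlda2 was not well above background in 2SA, and was at least 3.53-fold lower there than in WT and at least 3.61-fold lower than in 1SA. Tob1, a relative of Btg2, was highest in 1SA (0.41) and lowest in 2SA (-0.40), while Tob2 was lower in 1SA (-0.23, and 0.02 in 2SA). Btg1 differed by -0.11 in 1SA, within its spot limit of 0.146, and by 0.22 in 2SA. The second Btg1 probe was not well above background in WT. It was at least 1.18-fold higher in 1SA and at least 2.00-fold higher in 2SA than there. Bak1, the closest relative of Bax, differed by -0.13 in 1SA and -0.00 in 2SA, within the spot limit of 0.146.

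Since several members also answer to early stress signals, immediate early genes and targets of the stress factors ATF4 and CHOP were read as well. Of the 12 immediate early genes, 3 were 2-fold higher than WT in 1SA (0.727% of all genes) and 3 in 2SA (1.12%), and none was 2-fold lower, with medians of 0.27 in 1SA and 0.35 in 2SA. In 1SA these were Nr4a1 (1.79), Egr1 (1.79) and Dusp1 (1.09), and in 2SA Ier3 (1.24), Fos (1.19) and Nr4a1 (1.11), of which Dusp1 was named after its value was seen. Atf3 (-0.32 and -0.36) and Fosb (-0.28 and -0.09) were the lowest in both mutants. The level was highest in 1SA, as that of Btg2 was, for 5 of the 12, highest in 2SA for 5 and highest in WT for 2. The 9 measured genes of 10 in the ATF4 and CHOP list, which shares Sesn2 with the list of other p53 targets, had medians of -0.01, -0.06 and -0.24. Ddit3, which encodes CHOP, read 1.57 in WT, 0.986 in 1SA and 1.66 in 2SA, the order of Cdkn1a. The same order held for Psat1, a serine synthesis gene (-0.58 in 1SA and 0.46 in 2SA, 1.05 apart). The second Psat1 probe was not well above background in WT or 1SA. Trib3, named after its value was seen, had that order as well (-0.55 and 0.30, 0.85 apart). Chac1 (1.23 and 0.51) and Ddit4 (0.53 and -0.43) were highest in 1SA, and Asns was lowest in 2SA (-0.65). How far these signals account for the members' differences was not tested.

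Markers of cell types moved with the arrays as well. The 6 hepatocyte markers, Alb among them, were all measured, and their summed scaled intensity was 3317 in WT, 3543 in 1SA and 2890 in 2SA. The 4 bile duct markers were all lower in 1SA than in WT (median -0.78), with sums of 0.990, 0.639 and 1.02, while in 2SA minus WT 2 were higher and 2 lower (median 0.01). The 6 Kupffer cell markers were all lower in 2SA than in WT, with sums of 199, 143 and 98.5, although the second probe of Adgre1 was higher there (0.14), and against 1SA 5 of 6 were lower. The 6 proliferation markers were all higher in both mutants than in WT, with sums of 6.72, 11.3 and 11.3, and between the mutants 4 were higher in 2SA and 2 lower.

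Sums for lymphocytes were 12.2, 10.4 and 13.5 (5 of 7 markers measured), for monocytes and granulocytes 21.0, 19.4 and 22.6 (5 of 6), for sinusoidal endothelial cells 68.8, 74.5 and 55.9 (5 of 5) and for erythroid cells 54.6, 91.0 and 68.1 (2 of 4). The sums for bile duct, lymphocytes and monocytes and granulocytes thus had the order of Cdkn1a, lowest in 1SA and highest in 2SA. By gene, 2 of 4, 3 of 5 and 2 of 5 of their measured markers had that order. A sum weighs bright probes most and does not show that a whole list shared the order. Among the genes with that order, Gzma, a granule protease gene of cytotoxic lymphocytes, read 3.12 in WT, 1.40 in 1SA and 4.69 in 2SA (-1.16 and 0.59 against WT, 1.75 between the mutants). Lyz2, a lysozyme gene of myeloid cells, read 5.26, 3.36 and 7.69 (-0.65, 0.55 and 1.20). Other genes of these lists differed. Ccr2, of the monocyte and granulocyte list, was highest in 1SA, at 0.485, 2.44 and 0.873 (2.33, 0.85 and -1.48). Cd3e, of the lymphocyte list, read 3.62, 3.87 and 3.23, highest in 1SA and lowest in 2SA. No measured marker was at 0, and Cd8a was among the markers not well above background on any array. The part of these cells in the differences of the 10 genes was not tested.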

How the data were processed

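Liver RNA was labelled with Cy3 and hybridised to 1 SurePrint G3 array per group. The deposited intensity of a spot is linear brightness, background-subtracted and detrended within its array by the authors with Agilent Feature Extraction 10.10.1.1 per the file headers, and not scaled between arrays. The deposited series matrix held these values times 1 constant per array (3.02 for WT, 3.08 for 1SA and 2.81 for 2SA), whose source is not given in the sources used here. The arrays lay on 1 slide and held 59305 non-control spots for 55681 probes, placed on build mm9 per the file headers.

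Spots with outlier flags were left out (181 on WT, 148 on 1SA and 182 on 2SA), none was saturated, spots of a probe were averaged on the log2 scale, and scaled by subtracting the log2 75th percentile of non-control spots (290.8 for WT, 275.7 for 1SA and 319.5 for 2SA). A probe counted as measured when at least 50% of its spots were well above background, and each gene took the value of the brightest of its probes measured on every array. Probes were named by RefSeq accession through a GRCm38.p6 gene table, used for names only, which matched 26762 probes. The spot limit rests on repeated spots, and precision is limited by the number of arrays. With 1 array per group no test was run, and a 2-fold difference was the threshold.

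The members and lists were chosen with earlier results of these data known. Named were all members with every probe, Trp53, Mdm4, Fasl, Tnfsf10, Fadd and Casp8, and the 2 highest and 2 lowest genes of each list in each mutant against WT, of which some are not reported here. Ly6c2 and Hbb-b1 matched no probe. Alternatives were quantile normalisation, the array median, normexp (offset 50, on median brightness and median local background), the series matrix, filters on dim probes, the mean of all probes, outlier spots kept, and thresholds of 1.5-fold and 3-fold. The tools were R 4.3.3 with limma 3.58.1, and pandas 2.3.3, matplotlib 3.10.9 and numpy 2.4.6 in Python 3.11.15. The calculation was tested on simulated data.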

Additional observations from a re-analysis of the deposited data

Results flagged for a closer look

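Cdkn1a, Phlda3 and Bax were lower than WT in 1SA and higher than WT in 2SA, each time by more than the spot limit. The share of all genes that did so was not counted. By differences of any size, 34.4% of all genes were lowest in 1SA and 31.3% were highest in 2SA. For Cdkn1a the mutants differed by 1.69 on the log2 scale (-1.18 in 1SA and 0.51 in 2SA against WT). For Phlda3 they differed by 1.27 (-0.57 and 0.70), and for Bax by 0.63 (-0.34 and 0.29). With 1 array per group these differences between the mutants were not tested.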

How the results depend on the processing

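The median of the 10 genes kept its direction under every alternative, from -0.11 to -0.03 in 1SA minus WT, 0.29 to 0.35 in 2SA minus WT and 0.31 to 0.43 in 2SA minus 1SA. The number of members past 2-fold was 1 in 1SA minus WT, 0 in 2SA minus WT and 2 in 2SA minus 1SA. It became 2, 3 and 4 at 1.5-fold, and at 3-fold 0 in 1SA minus WT and 1 in 2SA minus 1SA, where Cdkn1a remained. With normexp it was 0 in 1SA minus WT, since Cdkn1a came to -0.97. Of 267 member differences under alternatives, 11 moved by at least 0.101, the SD of a difference from all repeated spots within arrays. Of these, 7 moved with normexp and 4 when all probes of a gene were averaged. No difference at or above the spot limit turned its sign, and 4 below it did, in Mdm2 and Tnfrsf10b.

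The share of higher genes among all genes past 2-fold in 1SA minus WT was 39.0%, and 51.5% with normexp. With no filter on dim probes it went from 67.4% to 44.7% in 2SA minus WT and from 68.8% to 55.1% in 2SA minus 1SA. No alternative moved the median of all genes by more than 0.1. The stricter filter left 9 members, without Tnfrsf10b. The scaled series matrix gave the same values, as its constants cancel, so it was also used unscaled, chosen after seeing the data. No paired analysis was possible because there was 1 array in a group, for which no replicate could be left out either, and with 1 slide no slide block could be fitted. Dim probes (Tnfrsf10b, the second Cdkn1a probe, Trp53) have the widest spot limits.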
